A study of Mus musculus with 3 samples.

Results

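The intervals described here were listed in a first LMX1B ChIP-seq sample of mouse limb buds, overlapped no interval of a second ChIP with the same antibody, and lay away from gene ends. The rule kept intervals of the first ChIP that shared not 1 bp with an interval of the other list and whose midpoint was more than 1 kb from every end of a RefSeq gene of any biotype. Of 1287 first-ChIP intervals, 580 overlapped nothing in the other list and 333 of these were also away from gene ends. The other list was the longer one, with 4501 intervals. Presence in one list, absence of overlap with the other and distance to gene ends are the measured values the set was selected on, and they are given as a description with no test.

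Both ChIP samples came from C57BL/6 limb buds at embryonic day 12.5, with fore- and hindlimbs pooled in 2 runs of 48 limb buds. The tissue was frozen, fixed in 1% formaldehyde for 15 min during thawing and sheared to 300 to 500 bp, and 30 µg of chromatin was precipitated with 20 µl of the polyclonal LMX1B antibody BMO8. The first ChIP is marked as wild type in its track name, while the second, titled a validation of the antibody, carries no genotype in its track name. An input from pooled wild-type and mutant chromatin had no interval list and entered no comparison. Whole limb buds were used, so dorsal mesenchyme, in which LMX1B is made, was mixed with ventral tissue, ectoderm, vessels and nerve. With 1 sample for each ChIP there was no replicate and no spread between replicates. The labels do not say whether both samples came from separate chromatin preparations, so absence from the other list may concern the same or other material. Depth was unknown because interval lists carry no read counts.

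LMX1B is a LIM-homeodomain transcription factor that gives the limb its dorsal character. LIM-homeodomain proteins bind short AT-rich DNA elements, and many of the enhancers that limb regulators bind lie in introns or in the long stretches between developmental genes. An interval in a ChIP list is a place where sequenced fragments piled up. It does not by itself show binding, and an interval missing from the other list may be a place where the signal stayed under the caller's limit.

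Although all 333 intervals were away from the outer ends of genes, some lay at transcription start sites inside a gene, a position that alternative promoters can take. Below are the bases before the start site that the interval covered, for 8 of the 9 intervals that reached into the 250 bases before or 50 bases after a RefSeq start site. They run 5′ to 3′ on the gene's strand up to the base before the start site, from RefSeq on GRCm38.p6, whose coordinates are those of mm10. Capitals mark CG pairs, which are frequent at CpG-island promoters, and in Gm36560 they mark TAATTA, the core letters that many homeodomains bind. The first 7 are all those of protein-coding genes, and the last is the longer one of 2 at long non-coding RNA genes. The stretches were chr4:137993271-137993455 on the plus strand (Eif4g3), chr4:120825210-120825459 on the minus strand (Nfyc), chr4:33924394-33924643 on the plus strand (Cnr1), chr1:187997658-187997826 on the plus strand (Esrrg), chr10:43221287-43221485 on the plus strand (Pdss2), chr9:119088390-119088511 on the minus strand (Plcd1), chr12:85176091-85176232 on the minus strand (Pgf) and chr15:102752120-102752369 on the plus strand (Gm36560).
Eif4g3: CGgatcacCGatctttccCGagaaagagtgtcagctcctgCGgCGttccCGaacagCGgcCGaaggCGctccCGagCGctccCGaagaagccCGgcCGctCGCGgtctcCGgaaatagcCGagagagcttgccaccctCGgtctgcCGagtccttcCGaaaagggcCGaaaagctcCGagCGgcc
Nfyc: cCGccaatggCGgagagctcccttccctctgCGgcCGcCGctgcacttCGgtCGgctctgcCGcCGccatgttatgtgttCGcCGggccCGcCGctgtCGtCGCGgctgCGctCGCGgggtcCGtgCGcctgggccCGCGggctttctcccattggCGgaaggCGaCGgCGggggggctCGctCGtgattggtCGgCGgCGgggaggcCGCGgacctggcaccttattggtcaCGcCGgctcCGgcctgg
Cnr1: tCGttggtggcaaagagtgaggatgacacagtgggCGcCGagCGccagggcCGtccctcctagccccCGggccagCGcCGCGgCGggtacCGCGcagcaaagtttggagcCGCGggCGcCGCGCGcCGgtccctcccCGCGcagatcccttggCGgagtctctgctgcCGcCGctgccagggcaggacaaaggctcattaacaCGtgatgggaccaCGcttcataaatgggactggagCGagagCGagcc
Esrrg: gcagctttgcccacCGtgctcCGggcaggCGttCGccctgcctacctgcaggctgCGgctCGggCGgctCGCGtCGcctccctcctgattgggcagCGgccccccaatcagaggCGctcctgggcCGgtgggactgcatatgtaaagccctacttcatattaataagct
Pdss2: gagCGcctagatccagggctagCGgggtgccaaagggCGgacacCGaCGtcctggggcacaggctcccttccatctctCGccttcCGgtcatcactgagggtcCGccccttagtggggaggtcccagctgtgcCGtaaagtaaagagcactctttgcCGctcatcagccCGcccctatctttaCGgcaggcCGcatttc
Plcd1: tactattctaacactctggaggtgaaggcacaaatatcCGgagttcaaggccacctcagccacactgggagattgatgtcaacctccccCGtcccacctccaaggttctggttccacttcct
Pgf: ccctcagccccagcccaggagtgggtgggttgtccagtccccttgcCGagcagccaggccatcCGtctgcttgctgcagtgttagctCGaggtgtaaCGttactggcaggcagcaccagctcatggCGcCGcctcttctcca
Gm36560: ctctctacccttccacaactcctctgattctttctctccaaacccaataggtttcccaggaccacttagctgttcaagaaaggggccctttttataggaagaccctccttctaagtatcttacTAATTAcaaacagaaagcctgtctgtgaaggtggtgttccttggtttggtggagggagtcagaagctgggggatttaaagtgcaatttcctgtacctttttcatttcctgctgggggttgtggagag

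The stretch at Nfyc held 37 CG pairs in 250 bases and the one at Cnr1 28 in 250. The stretch at Eif4g3 held 24 in 185 bases, and those at Esrrg and Pdss2 held 13 in 169 and 13 in 199. Those at Pgf and Plcd1 held fewer, 6 in 142 bases and 2 in 122. The stretch at Gm36560, a long non-coding RNA, held 0 CG pairs in 250 bases and 1 TAATTA. Nfyc encodes a subunit of the CCAAT-binding factor NF-Y, Cnr1 a cannabinoid receptor, Eif4g3 a scaffold of translation initiation, Esrrg an orphan nuclear receptor and Pdss2 a subunit of the enzyme that makes the side chain of coenzyme Q. The interval at Eif4g3 had a score of 33, among the highest of the 333, and its midpoint was 59 bp downstream of the start site. The interval at Nfyc had a score of 22, that at Cnr1 19, that at Pdss2 18, that at Esrrg 17 and that at Gm36560 23. The scores are the authors' own whole numbers per summit with no stated unit.

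Of the 321 intervals on chromosomes with start sites in the table, 19 (5.92%, 95% Wilson interval 3.82 to 9.06) had one within 1 kb of the midpoint. Of 564 first-ChIP intervals that did overlap the other list and lay away from gene ends, 5 (0.887%, 0.379 to 2.06) had one. The difference was 5.03 percentage points (odds ratio 7.03, two-sided Fisher's exact p = 1.72e-05, Benjamini-Hochberg adjusted p = 5.16e-05 over 3 tests). Validation-only intervals away from gene ends stood at 58 of 3015 (1.92%, 1.49 to 2.48). Within 500 bp the counts were 13 of 321 unshared (4.05%) and 5 of 564 shared intervals (0.887%), and within 2000 bp 37 (11.5%) and 16 (2.84%). The comparison was chosen after the pattern had been seen, and an excess of unshared first-ChIP intervals at gene ends was already known, so it is no independent evidence. The adjustment covers only the 3 tests run and not the looks at the data that led to this comparison. Wilson intervals and exact p-values here cover counting of intervals within these lists, which are not replicates. With gene ends left out to 2.5 kb, 9 of 268 unshared (3.36%) and 4 of 529 shared intervals (0.756%) had one. The difference was then 2.6 points (Fisher's exact p = 0.0135). With gene ends left out to 5 kb, the difference was 1.93 points and did not pass (Fisher's exact p = 0.0651). Among scores of 16 to 20, 10 of 212 unshared intervals (4.72%) and 1 of 219 shared ones (0.457%) had a start site within 1 kb.

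**Figure D1:**
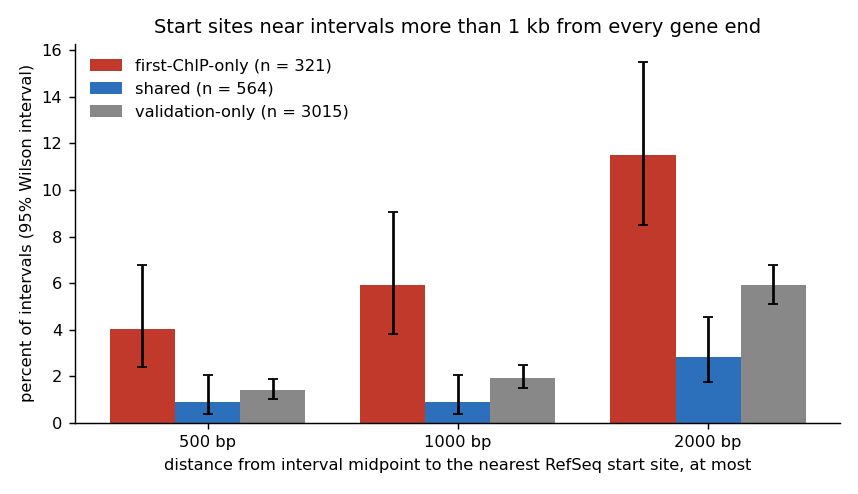
Percent of intervals more than 1 kb from every gene end whose midpoint lay within 500, 1000 or 2000 bp of a RefSeq start site, for first-ChIP-only (n = 321), shared (n = 564) and validation-only intervals (n = 3015). Bars give the percent and whiskers the 95% Wilson interval; at 1000 bp they stand at 5.92%, 0.887% and 1.92%.

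The 19 intervals belonged to 19 genes, 16 of them protein-coding. For 16 of the 19 the start site was more than 1 kb from the outer end of its gene, and for Macroh2a2, Plxnc1 and Srsf1 it was 0.74, 0.17 and 0.874 kb from it. The table lists several start-site windows for 10 of the 19 genes and a single one for the other 9, Pdss2 among them. The midpoint was downstream of the start site in 8 and upstream in 11. Hox genes were represented by Hoxa10 (799 bp downstream, score 24), Hoxd10 (493 bp upstream, score 18) and Hoxc4 (460 bp downstream, score 16). Genes that act on chromatin or RNA were Kmt2d, a histone H3 methyltransferase (868 bp upstream, score 21), Macroh2a2, a histone variant (266 bp downstream, score 16), and Srsf1, a splicing factor (606 bp downstream, score 23). Signalling genes were Pgf, a growth factor of the VEGF family (276 bp upstream, score 17), Plxnc1, a semaphorin receptor (858 bp downstream, score 21), and Plcd1, a phospholipase C (284 bp upstream, score 18). Cep41, which encodes a centrosomal protein (614 bp upstream, score 21), and Ccdc77 (350 bp downstream, score 18) were the other coding genes. The non-coding ones besides Gm36560 were Gm29328 (score 15) and 9430078K24Rik (score 18). The 19 genes were named after their values had been seen.

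The 300-base windows at these 19 start sites had a median GC content of 62.0% (39.7 to 72.0), against a median of 52.7% over all 32851 windows. The ratio of observed to expected CG pairs had a median of 0.709 (0 to 1.1), against 0.384 over all windows. On either strand, TAATTA was found in 1 of the 19 windows (5.26%) and in 5.29% of all windows. The E-box CANNTG was found in 12 (63.2%, against 72.3% of all windows), the GC box GGGCGG in 9 (47.4%, against 35.7%) and the CTCF core AGGNGGC in 6 (31.6%, against 29.4%). The TALE core TGACAG was in 0 of 19 (19.2% of all windows). A match of letters is no binding site, and 10 of the 19 intervals did not reach the window itself.

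The unshared intervals were low in score and narrow. Their scores ran from 12 to 35 with quartiles of 16, 18 and 20, and their widths from 208 to 796 bp with a median of 317 bp. Shared first-ChIP intervals away from gene ends (n = 599) had scores from 14 to 86 with a median of 22 and a median width of 438 bp. First-ChIP-only intervals at gene ends (n = 247), which the rule left out, had scores from 13 to 54 with a median of 19. The summit lay a median of 32 bp from the midpoint of the 333. A score at or above 20, the median of the whole first list, was reached by 88 (26.4%, 22 to 31.4), against 428 of the 599 (71.5%, 67.7 to 74.9).

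Read by score band, the unshared share of first-ChIP intervals away from gene ends was 86.4% at scores of 12 to 15 (51 unshared, 8 shared) and 65.7% at 16 to 17 (109 and 57). It was 44.5% at 18 to 19 (85 and 106), 24.3% at 20 to 22 (55 and 171) and 12.7% at 23 to 35 (33 and 227). The bands end at 35, the highest unshared score. Shared intervals with scores of 36 to 86 lie above them and are not counted in these shares. The median width of the unshared intervals was 273, 296, 330, 381 and 474 bp over the same 5 bands. Their share in gene bodies was 62.7%, 52.3%, 56.5%, 56.4% and 66.7%, in no order with the score. Unshared intervals thus outnumbered shared ones in the bands from 12 to 17, and shared ones outnumbered unshared ones in each band from 18 up. The highest band, 23 to 35, held 33 of the 333.

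**Figure D2:**
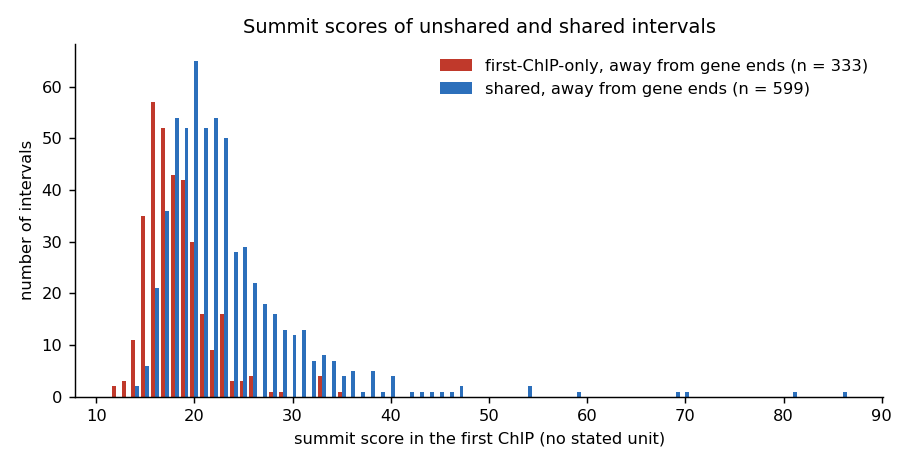
Number of intervals at each first-ChIP summit score (a whole number with no stated unit) for first-ChIP-only (n = 333) and shared intervals (n = 599), all away from gene ends. The unshared bars end at 35 with a median of 18, and the shared bars run on to 86 with a median of 22.

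Among these 33 were the 20 with the highest scores, of which 15 lay in the body of a gene. The highest, 35, lay in Hdac9, a class IIa histone deacetylase, on chromosome 12 at 34683268 to 34683928. Beside Hdac9, the nearer coding gene was Prps1l1 at 301 kb, with Twist1 at 724 kb on the other side. The nearest validation interval was 30.4 kb away. Scores of 33 were held by 4 intervals: in Egfem1 (chromosome 3, 29366225 to 29366892), at Eif4g3 (chromosome 4, 137993271 to 137993760), in Tenm3 (chromosome 8, 49361130 to 49361659) and outside genes 83.6 kb from Dkk2 (chromosome 3, 132263626 to 132264147). Dkk2 encodes a secreted modulator of Wnt signalling and Tenm3 a teneurin, a large adhesion protein of the cell surface. These 4 differed in how far the other list was: 0.681 kb for Egfem1, 46.9 kb for Tenm3, 249 kb for the one near Dkk2 and 1150 kb for Eif4g3. A score of 29 belonged to an interval between Mfap3 and Galnt10 (chromosome 11, 57548798 to 57549238) and one of 28 to an interval in Ropn1 (chromosome 16, 34667030 to 34667496).

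Scores of 26 stood in Ext2 (chromosome 2, 93772628 to 93773102), which encodes a heparan sulfate polymerase, in Sox11 (chromosome 12, 27341295 to 27342072), a SOX transcription factor, and in the non-coding genes Gm46823 (chromosome 3, 126505552 to 126506016) and 1700112M02Rik (chromosome 13, 71499661 to 71500176). The interval in Ext2 was 60.6 kb from Accs and 91.5 kb from Alx4, a homeobox gene of the limb. That in 1700112M02Rik was 458 kb from Irx1 and 658 kb from Adamts16. Scores of 25 stood in Tenm4 (chromosome 7, 96667632 to 96668052), in Dnah2 (chromosome 11, 69526983 to 69527465) and 89.4 kb from Adarb2 (chromosome 13, 8112903 to 8113414). Scores of 24 stood in Disp1 (chromosome 1, 183102063 to 183102552), whose product releases Hedgehog proteins from cells, in Hoxa10 (chromosome 6, 52233908 to 52234373) and between Dhx35 and Gm826 (chromosome 2, 159414465 to 159414931). The last of these was the farthest of the 333 from any gene end, at 275 kb. The last 3 of the 20 were taken by position from the 16 intervals with a score of 23. One lay in Col6a3, a chain of collagen VI (chromosome 1, 90775915 to 90776297), and one in Sptlc3 (chromosome 2, 139609694 to 139610118). The third (chromosome 3, 56955420 to 56955853) lay between Nbea, 772 kb away, and Tm4sf1, 330 kb away.

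The nearest validation interval was a median of 70.5 kb away, with a range of 0.035 to 4220 kb. It lay within 500 bp of 15 unshared intervals (4.50%, 2.75 to 7.30), within 1 kb of 20 and within 50 kb of 152 (45.6%, 40.4 to 51.0), and was over 1 Mb from 12. For the 247 unshared intervals at gene ends the median was 176.9 kb, and 70 (28.3%, 23.1 to 34.3) had one within 50 kb. The 3 closest to meeting the overlap rule were 35, 45 and 82 bp from a validation interval: in Tbx18 (chromosome 9, 87729126 to 87729504, score 18), at 35326501 to 35326797 on chromosome 9 (score 19) and at 87377529 to 87378022 on chromosome 9 (score 21). On the other side, intervals counted as shared overlapped by only 11, 35 and 41 bp, with scores of 17, 16 and 17. For gene ends, the 3 nearest inside the rule were 1006, 1024 and 1028 bp away (scores 16, 15 and 22), and the 3 nearest outside 980, 986 and 987 bp (scores 18, 21 and 39).

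A further deposited track named Active Regions held 735 regions, each with the same start and end as a first-ChIP interval. It held 15 of the 333 unshared intervals (4.50%), with gaps to the validation list of 35 to 489 bp and scores of 12 to 23, besides all 707 shared intervals and 13 unshared ones at gene ends. The smallest gap among the other 318 was 657 bp. The 15 in the track were therefore the same ones that lay within 500 bp of a validation interval.

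By position, 190 of the 333 (57.1%, 51.7 to 62.3) lay in the body of a gene and 143 (42.9%, 37.7 to 48.3) outside genes. Shared intervals away from gene ends were in gene bodies in 298 of 599 cases (49.7%, 45.8 to 53.7), a difference of 7.31 percentage points (odds ratio 1.34, two-sided Fisher's exact p = 0.034, adjusted p = 0.034 over 3 tests). For bodies of protein-coding genes the counts were 158 (47.4%) and 224 (37.4%), a difference of 10.1 points (Fisher's exact p = 0.00348, adjusted p = 0.00522), a comparison added after seeing the data. The first difference did not pass when intervals within 1 kb of a start site were left out of both sets (5.13 points, Fisher's exact p = 0.144), when gene ends were drawn at 2.5 kb (4.37 points, p = 0.242) or 5 kb (4.66 points, p = 0.244), or among scores at or above the median (10.2 points, p = 0.101). Validation-only intervals away from gene ends were in gene bodies in 55.9% of 3179 cases and in protein-coding ones in 47.0%. Of all 1287 first-ChIP intervals, gene ends included, 58.1% were in gene bodies and 47.0% in protein-coding ones. Both stood close to the unshared intervals. Exons, introns and UTRs were not resolved, since the gene table holds gene starts and ends only.

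Within genes, 158 unshared intervals lay in protein-coding ones and 32 (9.61%) only in long non-coding RNA genes. Among shared intervals the last class held 74 (12.4%). Outside genes, 13 of the 333 (3.90%, 2.30 to 6.56) were more than 100 kb from any gene end, against 40 of the 599 (6.68%, 4.94 to 8.97). The median distance to a gene end was 15.2 kb for unshared and 24.9 kb for shared intervals. Scores in gene bodies and outside genes had the same median, 18, and median widths of 315 and 322 bp.

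The protein-coding genes that held an unshared interval numbered 151, with a median length of 139 kb against 17.2 kb for all protein-coding genes and 256 kb for the 183 that held a shared interval away from gene ends. The difference from all genes follows in part from the rule, since the shortest genes have no point more than 1 kb from their ends, and longer genes offer more room. Of the 151, 21 (13.9%) also held a shared interval and 54 (35.8%) also a validation-only one. Among all 21779 protein-coding genes, 227 held a shared interval. The count over all genes for validation-only intervals is not given here, and gene length was not matched. The 21 had a median length of 496 kb and included Hdac9, Tenm3 and Disp1, as well as Ntm, a neural cell adhesion gene, Pard3b, a cell polarity gene, and Nfia and Ebf3, which encode transcription factors. Only 7 of the 151 held 2 or more unshared intervals. The other 144 held 1 each.

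Along the chromosomes the unshared intervals were scattered. Another of the 333 lay within 50 kb of 24 (7.21%), against 108 of 599 shared intervals with another shared one away from gene ends (18%) and 269 of all 1287 (20.9%). The sets differ in size, and the part of this in the shares was not tested. The 24 formed 12 pairs and no group of 3. A shared interval lay within 50 kb of 45 of the 333 (13.5%, median distance 754 kb), and of 17 of the 247 unshared intervals at gene ends (6.88%, median 1610 kb). For the 599 shared intervals away from gene ends, another shared one of any position lay within 50 kb of 117 (19.5%, median 387 kb).

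The 12 pairs are named here after their values were seen. Pairs lay in Ebf3 (4.67 kb apart, scores 19 and 19), at Tbx4 (35.3 kb, 20 and 20), in Evx2 and Hoxd10 (37.2 kb, 19 and 18), in Hoxc6 and Hoxc4 (24.1 kb, 16 and 16) and between Tbx18 and Nt5e (38.4 kb, 17 and 17), the last 254 kb or more from either gene. Others lay in Dclk1, a neuronal kinase gene (4.13 kb, 20 and 16), between Cer1 and Frem1 (4.26 kb, 19 and 16), between Dusp10 and the homeobox gene Hlx (5.66 kb, 21 and 20) and in the non-coding gene Gm33597 (28.9 kb, 16 and 23). The last was 108 kb from Bnc2. The other 3 pairs were in Zfp521 (25.4 kb), at Bahcc1 (48.3 kb) and at Gm35835 (29.9 kb).

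By chromosome, 34 of the 333 (10.2%) lay on chromosome 3, 32 (9.61%) on chromosome 1 and 32 (9.61%) on chromosome 4. Of the 599 shared intervals, 7.85%, 8.35% and 4.51% were on the same 3 chromosomes. Chromosome 14 held 8 unshared intervals (2.40%, against 5.84% of shared ones), chromosome 16 held 6 (1.80%, against 4.34%) and chromosome 12 held 10 (3.0%, against 6.01%). No unshared interval away from gene ends lay on X, where the whole first list had 2 intervals. These shares were not tested.

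**Figure D3:**
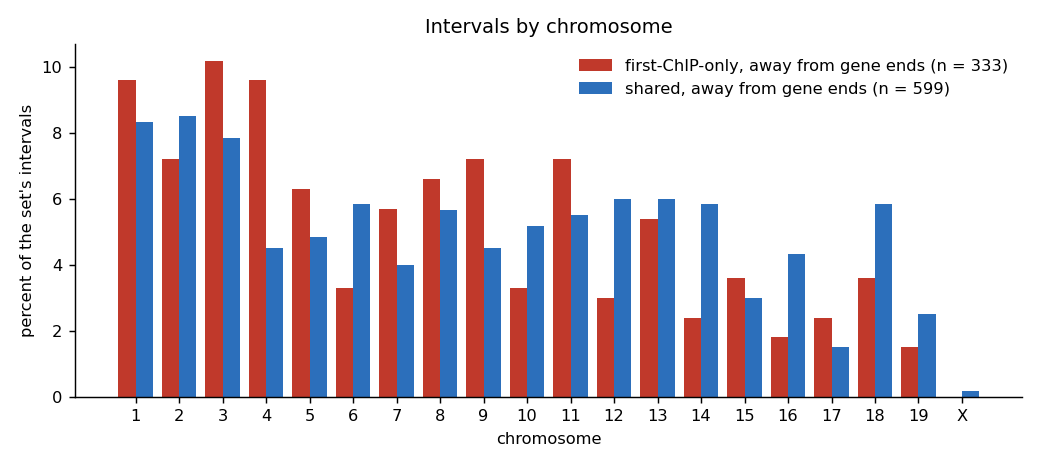
Percent of each set's intervals on each chromosome, for first-ChIP-only (n = 333) and shared intervals (n = 599) away from gene ends. Chromosome 4 holds 9.61% of the unshared and 4.51% of the shared intervals, and chromosome 14 holds 2.40% and 5.84%.

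To relate intervals to genes, each protein-coding gene was given a domain, which ran from its body up to the neighbouring protein-coding gene on each side, over at most 1 Mb. Of 21779 genes, 421 (1.93%) had an unshared interval in their domain. Among 55 transcription factor genes of the limb, 14 did (25.5%), and among 34 genes of tendon and connective tissue, 8 (23.5%). Limb signalling genes stood at 6 of 43 (14.0%), joint genes at 3 of 18 (16.7%) and cartilage and bone genes at 2 of 30 (6.67%). Over all 17 lists, 41 of 426 different genes (9.62%) had an unshared interval. Shared intervals lay in the domains of 19 of the 55 limb transcription factors, 9 of the 34 tendon genes and 11 of the 43 signalling genes. For joint genes and for cartilage and bone genes the count was 5 each. Genes of these lists were thus not particular to unshared intervals. The count of shared intervals over all genes is not given here. The lists are described by these counts with no test of their own, and they were written with earlier results of these data known. An interval in the domain of a gene can lie nearer to another gene. With only the nearest protein-coding gene taken, 34 list genes had an unshared interval, against 1.42% of all genes.

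Domain length differed between lists, so the share of genes with an interval is also given by domain length. The median domain was 67.3 kb over all genes, 299 kb for the limb transcription factors and 336 kb for the tendon genes. Of all genes with domains under 50 kb, 0.272% had an unshared interval, and of those over 1 Mb 12.0%. Limb transcription factors stood at 2 of 11 under 50 kb, 1 of 8 from 50 to 200 kb, 2 of 13 from 200 to 500 kb, 3 of 11 from 500 to 1000 kb and 6 of 12 above. All genes stood at 0.981%, 4.16% and 8.78% in the 3 middle classes. Tendon genes stood at 5 of 16 from 200 to 500 kb, 2 of 6 from 500 to 1000 kb and 1 of 5 above, with 0 of 7 in shorter domains. Long genes of cell adhesion and synapses, with a median domain of 2390 kb, stood at 3 of 30 (10%), and axon guidance genes, with 717 kb, at 2 of 42 (4.76%).

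**Figure D4:**
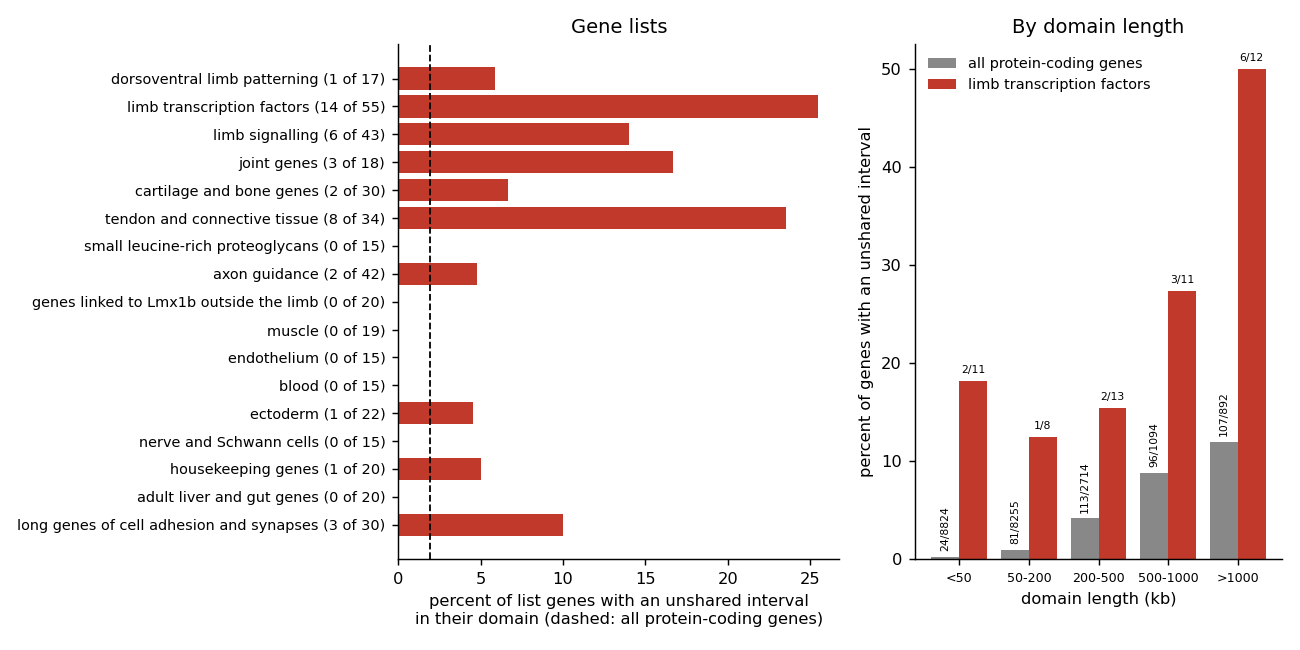
Left, percent of the genes of each list with a first-ChIP-only interval away from gene ends in their domain, with counts in the labels and a dashed line at 1.93% for all protein-coding genes. Right, the same percent by domain length for all protein-coding genes and for the limb transcription factors; the latter run from 2 of 11 under 50 kb to 6 of 12 above 1000 kb.

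Of the 14 limb transcription factors, 3 were T-box genes. Tbx5, which starts forelimb outgrowth, held an interval in its body (chromosome 5, 119803222 to 119803595, score 21) and had a second 218 kb away with the same score, and none that was shared. The second was nearer to Rbm19, at 13.6 kb. Tbx4, its hindlimb counterpart, held one (chromosome 11, 85889859 to 85890381, score 20) and had another 9.35 kb from its end (85925240 to 85925661, score 20), beside 3 shared intervals elsewhere in its domain. Tbx18, a mesenchymal T-box factor, had 4 unshared and 7 shared intervals in a domain of 1070 kb. Of the 4, with scores of 17 to 21, 3 were 0.035, 0.082 and 0.106 kb from a validation interval and the last was 17.5 kb from one.

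Other limb transcription factors had their intervals at a distance. Sall1, a zinc finger gene, had one 17.9 kb away (score 19). Like Sall1, the following 7 fall outside the 5 nearest that the naming rule takes: Hand2, Emx2, Shox2, Gli3, Meis1, Zfhx3 and Irx1, at 117 to 458 kb. The interval 117 kb from Hand2 was 14.6 kb from Scrg1. Hand2 acts in posterior limb bud and Gli3 carries the Hedgehog signal, while Shox2 and Meis1 act in proximal limb. The interval near Gli3 was 0.411 kb from a validation interval and that near Shox2 1.64 kb. Of the 14, 9 also had a shared interval in their domain.

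The Hox clusters, whose genes pattern the limb along its axis, held 5 unshared intervals away from gene ends: 1 in HoxA, 2 in HoxC, 2 in HoxD and 0 in HoxB. HoxA held a further unshared one at a gene end, in Hoxa3 (chromosome 6, 52212731 to 52213097, score 18), 0.122 kb from a validation interval. Shared intervals numbered 1 in HoxA and 0 in the other 3 clusters. In HoxD those away from gene ends lay in Evx2 (chromosome 2, 74653995 to 74654357, score 19) and Hoxd10 (74691234 to 74691563, score 18). The cluster also held 8 validation-only intervals, so that both ChIP samples listed intervals there but none that overlapped. The nearest validation interval was 2.41 kb from that in Evx2 and 4.6 kb from that in Hoxd10. HoxC held its 2 in Hoxc6 (chromosome 15, 103010604 to 103010835, score 16) and Hoxc4 (103034710 to 103035000, score 16) and 1 validation-only interval, 3.69 kb from the first. HoxA held the interval in Hoxa10 and 11 validation-only intervals, the nearest 5.39 kb away.

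**Figure D5:**
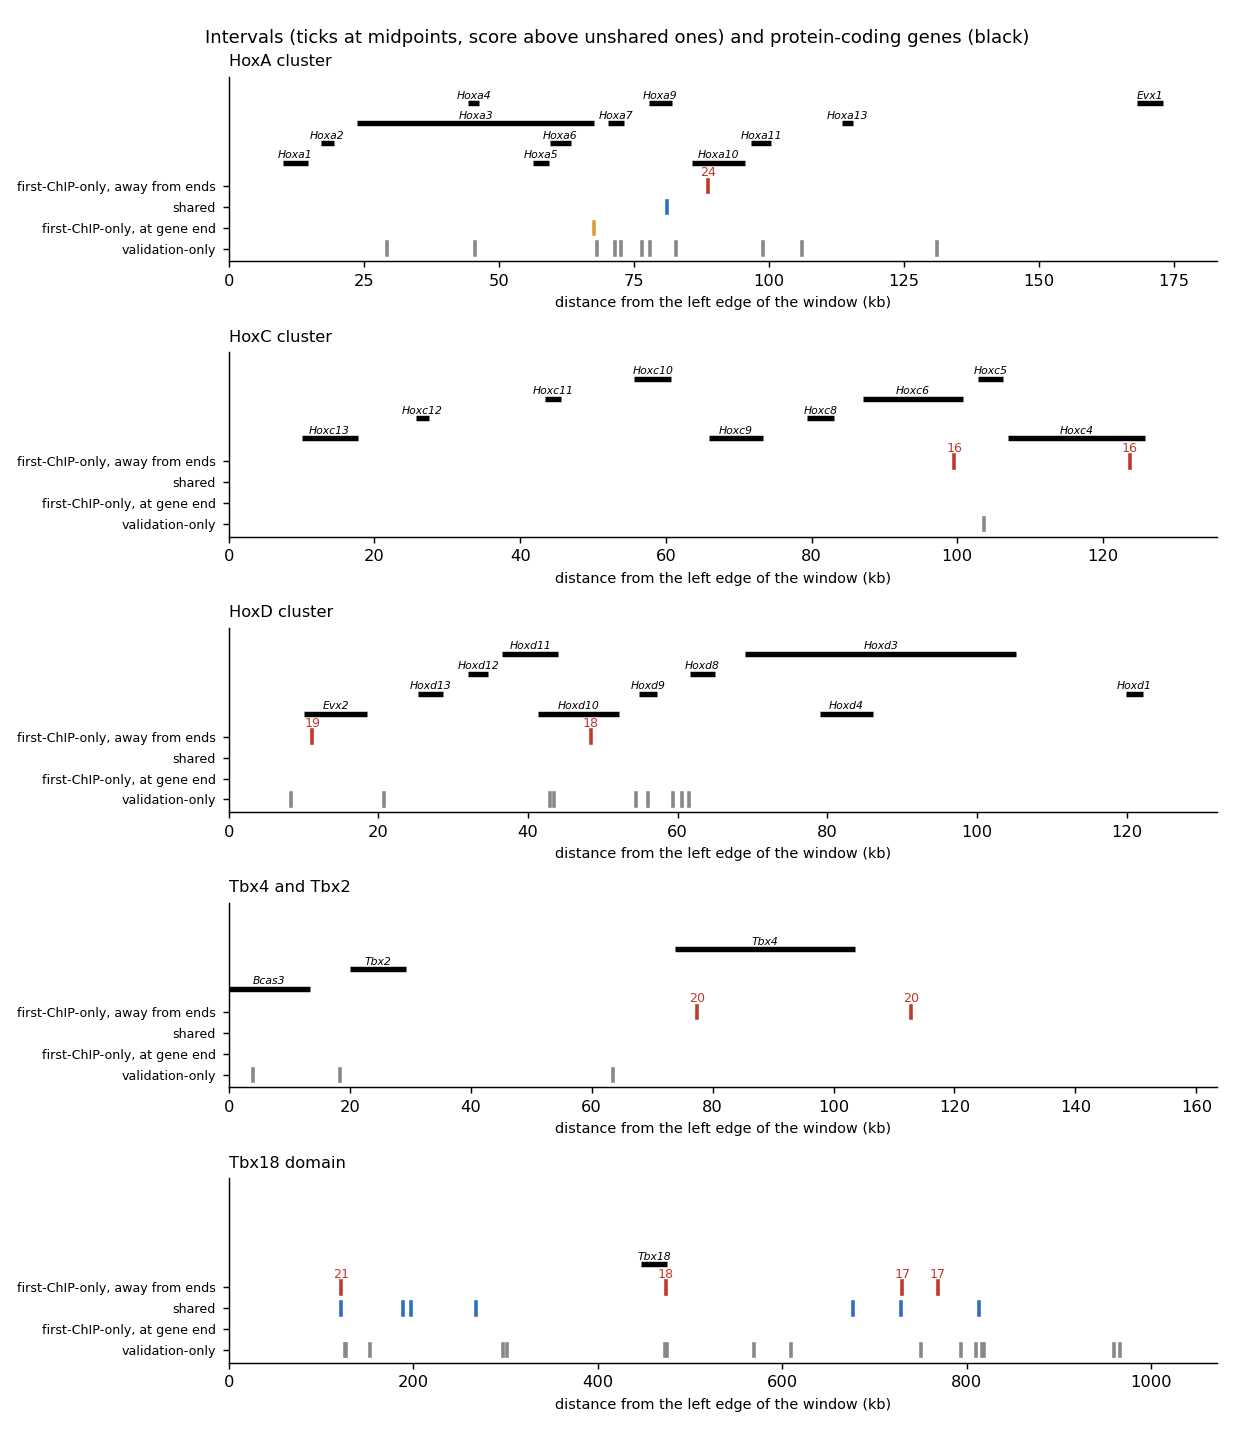
Maps of the HoxA, HoxC and HoxD clusters, the Tbx4 and Tbx2 region and the Tbx18 domain, with distance from the left edge of each window in kb. Black bars are protein-coding genes and ticks mark midpoints of intervals by class, with the score above each first-ChIP-only interval away from gene ends; the Tbx18 domain has 4 of these and 7 shared ones, and the HoxD window has 2 and 0.

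Tendon and connective tissue genes with an interval included collagens and transcription factors. Col5a1, a chain of collagen V (chromosome 2, 27932943 to 27933275, score 19), and Col6a3 (score 23) held theirs in the body, 864 and 279 kb from the nearest validation interval, and had no shared one. Ebf1 (chromosome 11, 44774334 to 44774613, score 18) and Ebf3 (chromosome 7, 137312973 to 137313273, score 19), which encode EBF transcription factors, held theirs in the body too, with 2 and 1 shared intervals in their domains. Col1a2, a chain of type I collagen, had one 11.9 kb away (chromosome 6, 4553350 to 4553603), with the lowest score of all, 12, and 0.339 kb from a validation interval. The other 3 were Tgfb2, Six2 and Tgfbr2, with intervals 115 to 209 kb away. That of Six2 was nearer to Srbd1, at 89.1 kb, and that of Tgfbr2 to Rbms3, at 188 kb. With windows of 50 kb around the gene in place of domains, the tendon list stood at 5 of 34, and 1.81% of all genes had an interval.

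Limb signalling genes with an interval in the body were Fzd7, a Wnt receptor (chromosome 1, 59483606 to 59484349, score 17), and Wnt5a, a ligand that directs limb elongation (chromosome 14, 28507714 to 28508058, score 16). Jag1, a Notch ligand, had one 1.06 kb outside its body (chromosome 2, 137117441 to 137117720, score 17), with the nearest RefSeq start site also 1.06 kb away. A second in the domain of Jag1, 764 kb away (score 17), was nearer to Btbd3, at 376 kb. Sfrp2, a secreted Wnt inhibitor, had one 54.7 kb away (score 18) and a second 125 kb away (score 17). Bmp2, a bone morphogenetic protein, had one 72.8 kb away (score 17). Dkk2 was the sixth, with the interval of score 33. Of the 6, 2 also had a shared interval, Jag1 and Bmp2.

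Among joint genes, Osr1 had an interval 235 kb away (chromosome 12, 9338997 to 9339380, score 23), 0.468 kb from a validation interval, Gdf6 one 282 kb away (score 17) and Sulf1 one 640 kb away (score 19). That of Sulf1 was nearer to A830018L16Rik, at 76.3 kb. All 3 genes also had shared intervals, 5 for Osr1 and 1 each for the others. Osr1 encodes a transcription factor of joint and connective tissue and Gdf6 a growth factor of joint formation. Among cartilage and bone genes, Runx3 held one in its body (chromosome 4, 135146868 to 135147273, score 20), and Sox9, the regulator of cartilage formation, had one 962 kb away (score 15). The interval counted for Sox9 was nearer to Gm11677, at 94.2 kb. Of the long adhesion genes, Tenm3, Tenm4 and Macrod2 held intervals in their bodies. Of axon guidance genes, Ephb1 held one in its body (score 18) and Unc5b had one 228 kb away (score 18). The latter was nearer to Pcbd1, at 29.5 kb, and 4220 kb from the nearest validation interval, the farthest of all.

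The dorsoventral patterning list had 1 of 17 genes, Lmx1b itself (5.88%). Its interval lay on chromosome 2 at 33486606 to 33486955 with a score of 18, 74.2 kb from Lmx1b and 18.2 kb from Zbtb43, which is nearer. The domain held 3 shared intervals besides. The next unshared interval away from gene ends was 229 kb from Lmx1b on the side of Pbx3 (33869709 to 33870504, score 19).

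Lists for other cell types held few unshared intervals. Muscle stood at 0 of 19, endothelium at 0 of 15, blood at 0 of 15, nerve and Schwann cells at 0 of 15 and adult liver and gut at 0 of 20. Targets and partners of Lmx1b in organs other than limb stood at 0 of 20 and small leucine-rich proteoglycans at 0 of 15. Ectoderm stood at 1 of 22, with Sp8, a factor of the apical ridge (chromosome 12, 118844266 to 118844547, score 14, 1.88 kb from the gene). Housekeeping genes stood at 1 of 20, Ywhaz, at 138 kb, with Pabpc1 nearer at 22.6 kb. At 1.93% of all genes, fewer than 1 occupied gene would stand in a list of 20, so a count of 0 says little.

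Some genes had several unshared intervals in their domain: 34 had 2, 9 had 3, 2 had 4 and 1 had 5, while 375 had 1. Nfia, a nuclear factor I gene, had the 5, with scores of 20, 16, 18, 16 and 23, over 1570 kb of chromosome 4. One lay in its body (97586885 to 97587267) and the others 3.83 to 445 kb from it, beside 2 shared intervals. Nbea, a gene of vesicle traffic in neurons, had 4 with scores of 17 to 23 and no shared one. Only 1 of these 4 was in its body (chromosome 3, 55824891 to 55825176), and the one at 55599470 to 55599836 also counted for Dclk1. Auts2 held all of its 3 in its body (scores 18, 18 and 13), and Dclk1 held 2 of its 3 there (scores 20 and 16). Dnm3, with 3 in its body, Tenm4 and Zfp521 also had 3. Shared intervals in these domains numbered 7 for Dnm3, 2 each for Auts2, Dclk1 and Zfp521, and 1 for Tenm4. The same 3 unshared intervals counted for Gm40514 and Ubash3b, and another 3 for Thap1 and Zfp703, all outside the bodies of these genes. Beside them lay 4 shared intervals for Gm40514, 2 for Ubash3b, 4 for Thap1 and 5 for Zfp703.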

How the data were processed

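LMX1B ChIP-seq of limb buds was used as 2 lists of intervals (peaks), 1 per ChIP sample, matched to samples through track names inside the deposited files. The build was mm10 and BWA was among the tools, per the submitters' processing notes. Neither the version of BWA nor the peak caller and its limit is stated: not given in the sources used here. The authors deposited a whole-number score per summit whose unit and normalization are not stated. It served only to describe, rank or filter intervals within a list. The first list, deposited with each ChIP sample, holds the same 1287 intervals in both copies, and 1 summit, of none of the 333, differs. The 1 further track, Active Regions, names no sample.

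Coordinates are counted from 1. Gene ends came from a RefSeq table of GRCm38.p6, with 49603 genes, 21779 of them protein-coding, after entries before 3 Mb were left out except on Y. Start sites and their sequences (250 bases before, 50 after) came from a RefSeq table of 32851 windows of 27025 genes; 12 unshared and 35 shared intervals on a chromosome it does not cover were left out there. Two-sided Fisher's exact tests, 3 in all with Benjamini-Hochberg adjustment, compared unshared with shared intervals of the same position rule. Only the test of gene bodies of any biotype was planned. The adjustment does not count the looks at the data that led to the other tests. Shares carry 95% Wilson intervals. A domain is a gene body extended to the next protein-coding gene, at most 1 Mb. Distances run from the midpoint to the nearer gene end.

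The members and the 17 gene lists were chosen with earlier results of these data known. Of 431 list entries, 430 matched the table. Named by rule were the 20 highest scores, at most 5 genes per list by distance and the 5 genes with most intervals (ties by symbol). Intervals in the domain of Lmx1b and those nearest the thresholds were also named by rule. Pairs, Hox clusters, intervals at start sites, further list genes and further genes with 3 intervals were added after values were seen. Alternatives changed the overlap rule, gene-end distance, gene biotypes, midpoint, score limit, cluster distance and gene window. Motif content of all intervals was planned and not run, since no genome of the build was used here. The functions were tested on simulated data. Python 3.11.15, pandas 2.3.3, NumPy 2.4.6, SciPy 1.17.1 and matplotlib 3.10.9 were used.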

Additional observations from a re-analysis of the deposited data

How the results depend on the processing

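Over all alternatives, 39 values had the same direction and the same side of the threshold, or stayed close to the reported one, 11 moved, 5 no longer passed and 0 changed direction. Close was taken loosely for counts. Intervals with another within 50 kb went from 24 to 16 with gene ends at 2.5 kb and were counted as close. So were the 31 with ends of protein-coding genes only, and signalling genes going from 6 to 4 with windows of 50 kb. By Fisher's exact test, the difference in location no longer passed with gene ends at 2.5 kb (4.37 points, p = 0.242) or 5 kb (4.66, p = 0.244), at scores at or above the median (10.2, p = 0.101) and, chosen after seeing the data, without intervals near start sites (5.13, p = 0.144). The difference in start sites, itself chosen after seeing the data, did not pass with gene ends at 5 kb (1.93 points, Fisher's exact p = 0.0651). With scores at or above the median, 88 unshared intervals were left, 4 of them with another within 50 kb, and 13 list genes had one, against 0.556% of all genes; limb transcription factors stood at 7, signalling at 1 and tendon at 1, with fewer intervals by construction. With ends of protein-coding genes only, 46.9% lay in gene bodies. Intervals with another nearby numbered 8 with gene ends at 5 kb, 8 within 10 kb and 40 within 100 kb. Other causes were not tested. No paired analysis was possible because each group has 1 sample. The validation list held 4501 intervals with a median score of 11 and a median width of 571 bp. The first list held 1287, with medians of 20 and 389 bp. Depth is unknown, so it cannot be told whether the validation ChIP could have listed the weaker intervals.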
